A study of Drosophila melanogaster with 2 samples.

Results

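The genes described here encode subunits of Mediator and of the general transcription factor TFIID in Drosophila melanogaster. They were chosen by name: protein-coding genes of the Ensembl annotation whose symbol starts with MED or Taf followed by a digit, plus Tbp, kto and skd. This gave 43 of the 13945 protein-coding genes on the 6 chromosome arms that the lists cover, 27 for Mediator and 16 for TFIID. The study profiled by chromatin immunoprecipitation and sequencing (ChIP-seq) where the zinc-finger protein disco-r, tagged with eGFP, sits in chromatin of whole embryos. There was 1 group of 2 biological replicates, numbered 2 and 3: embryos of both sexes pooled, 0 to 24 h old, from a transgenic line of strain disco-r-GFP, precipitated with an antibody to GFP. A label of each sample names disco, the paralog of disco-r, as the gene fused to GFP. The embryos were taken whole, so the lists do not say in which cells a region was occupied, and no control library was analysed here.

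Mediator is a large complex that carries signals from DNA-bound activators to RNA polymerase II. Its head and middle modules contact the polymerase, its tail is a main landing place for activators, its scaffold subunit MED14 joins these parts, and a separable kinase module holds kto (the fly MED12) and skd (the fly MED13). TFIID, built from the TATA-binding protein Tbp and the TBP-associated factors (Taf), recognises core promoters and nucleates the preinitiation complex. Most of these genes are used by nearly every cell. Taf12L is counted with TFIID by its name but is a testis paralog. In flies many genes used so widely lie head to head with a neighbour, so that a short stretch of DNA serves as promoter in both directions.

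The sequences below are the 151 bases centred on the summits at MED30, MED27, Taf4 and MED7, printed 5′ to 3′ along the named gene, because these 4 summits lie at the genes' own transcription start sites (TSSs) and their windows hold no annotated exon of a protein-coding gene. MED15 is shown because the strongest peak of any member locus lies just upstream of it. Capitals mark the searched words that a window holds: GAGAG on either strand (CTCTC at MED30), TATAAA (MED27) and TCAGT (MED7). Coordinates are dm6 and the sequence is RefSeq's Release 6 assembly.
MED30 (chr3L:654196-654346, - strand): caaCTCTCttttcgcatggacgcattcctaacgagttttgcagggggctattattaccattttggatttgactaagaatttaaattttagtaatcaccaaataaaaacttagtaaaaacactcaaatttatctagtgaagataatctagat
MED27 (chr3R:5654903-5655053, + strand): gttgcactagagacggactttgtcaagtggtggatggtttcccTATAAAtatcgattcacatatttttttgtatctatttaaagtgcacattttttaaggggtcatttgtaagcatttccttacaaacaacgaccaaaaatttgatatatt
Taf4 (chr3L:16113603-16113753, + strand): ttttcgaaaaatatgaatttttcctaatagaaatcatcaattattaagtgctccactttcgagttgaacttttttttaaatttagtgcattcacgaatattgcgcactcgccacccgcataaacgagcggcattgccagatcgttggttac
MED7 (chr3R:10761037-10761187, - strand): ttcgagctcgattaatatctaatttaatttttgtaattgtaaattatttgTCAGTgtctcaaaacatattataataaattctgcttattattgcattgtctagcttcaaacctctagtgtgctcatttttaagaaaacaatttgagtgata
MED15 (chr2L:472376-472526, + strand): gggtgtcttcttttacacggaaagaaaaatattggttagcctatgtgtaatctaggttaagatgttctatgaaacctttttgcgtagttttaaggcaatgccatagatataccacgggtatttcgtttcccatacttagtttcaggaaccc

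A peak of tagged disco-r stood at the promoter of a minority of the 43 genes, most of them Mediator genes, which also make up 27 of the 43. Peaks are the 2334 regions that the authors kept after filtering by irreproducible discovery rate (IDR), which scores how alike the replicates rank a region. The filter kept the strongest 2334 of the 29347 pooled candidate regions, so it acts as a threshold on pooled signal at 72.5, in the authors' units. A peak summit lay within 500 bp of an own TSS in 8 of 43 members (18.6%, 95% Wilson interval 9.74 to 32.6), against 11.5% of all protein-coding genes (1602 of 13945). The 8 were MED30, MED27, MED4, MED16, MED7, MED6, skd and Taf4. Among Mediator genes the count was 7 of 27 (25.9%, 13.2 to 44.7), and among TFIID genes 1 of 16 (6.25%, 1.11 to 28.3). The intervals cover counting error only, and those of the 43 members and of TFIID include the share of all genes. Given only to the gene with the nearest protein-coding TSS, promoter summits were left at 2 of 27 Mediator genes and 1 of 16 TFIID genes. Under that rule the share of all protein-coding genes was 8.48% (1182 of 13945). Whether the complexes differ was not tested.

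A wider window gave more members, TFIID genes among them. In the gene body plus 2 kb on either side, 14 of 43 members held a peak summit (32.6%, 20.5 to 47.5), against 22.2% of all protein-coding genes (3096 of 13945). Here TFIID genes had the count of 6 of 16 (37.5%, 18.5 to 61.4) and Mediator genes 8 of 27 (29.6%, 15.9 to 48.5). Taf10 and Taf10b entered the TFIID count through the same peak, although the interval treats genes as independent. The members had a median length of 1451 bp, against 2166 bp for all genes. Among genes of 971 to 3715.5 bp, the quartiles of member length, 8 of 21 members (38.1%, 20.8 to 59.1) held a summit in this window, against 19.0% of all such genes.

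Weaker candidates were common. The pooled list, which holds peaks and background together, had a candidate summit at an own TSS in 28 of 43 members (65.1%, 50.2 to 77.6), against 50.4% of all protein-coding genes. Over those 28 the strongest such signal had a median of 42.5 and ran between 22.0 and 189, against a median of 41.7 over the 7024 genes that had a candidate there. The median was 47.9 over 18 Mediator genes and 31.6 over 10 TFIID genes. Of the 28, 8 had an IDR peak (28.6%, 15.3 to 47.1), against 22.8% of all genes with a candidate at an own TSS. So the typical member with a candidate had a signal near the middle of those promoters that held a candidate.

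**Figure D1:**
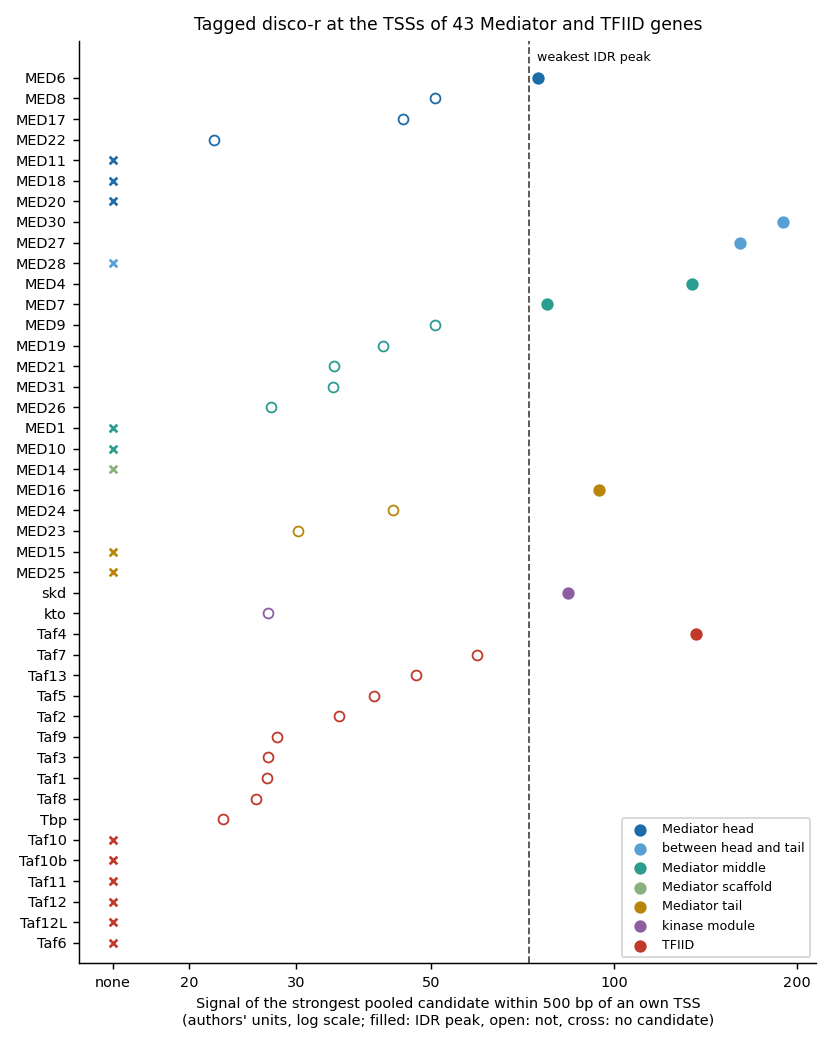
Signal of the strongest pooled candidate within 500 bp of an own TSS for each of the 43 genes (authors' units, log axis), coloured by module; filled points are IDR peaks, open points are not, crosses are genes with no candidate there. The 8 filled points lie right of the weakest IDR peak, from MED6 at 74.9 to MED30 at 189, and 15 genes have a cross.

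The strongest promoter signals among Mediator genes were at MED30 and MED27, subunits that sit between head and tail. At MED30, on 3L from 654071 to 654470, the peak had a pooled signal of 189 and ranked 327 of 29347, with signals of 107 in replicate 2 (rank 261 of 30000) and 78.4 in replicate 3 (rank 507). Its summit was 182 bp upstream of the MED30 TSS and 92 bp upstream of that of Rev1, which runs the other way. At MED27, on 3R from 5654778 to 5655177, the pooled signal was 161 (rank 486), with 74.6 in replicate 2 (rank 621) and 81.1 in replicate 3 (rank 473). That summit was 161 bp upstream of MED27 and 117 bp upstream of the divergent gene elm. Both peaks stood high in each replicate's own list, and in both cases the neighbour's TSS was the nearer one. MED28, the third gene of this group, had no pooled candidate at its TSS.

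The middle module, which carries the polymerase-facing core with the head, had peaks at MED4 and MED7. The MED4 peak, on 3L from 7250501 to 7250900, had a pooled signal of 134 (rank 723), with 63.6 in replicate 2 (rank 894) and 69.2 in replicate 3 (rank 671). Its summit lay 174 bp upstream of MED4, with no other protein-coding TSS within 500 bp. The TSS of a non-coding antisense RNA, asRNA:CR43470, was 61 bp from the summit. At MED7, on 3R from 10760912 to 10761311, the pooled signal was 77.7 (rank 2049), just above the IDR threshold, with 43.8 in replicate 2 (rank 1938) and 36.9 in replicate 3 (rank 2182). This summit was 80 bp upstream of MED7 and 198 bp upstream of the condensin gene Cap-H2 on the other strand, so here the member's TSS was the nearer one.

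In the head module 1 of 7 genes had a promoter peak (14.3%, 2.57 to 51.3), against 11.5% of all protein-coding genes. MED6, which encodes a conserved head subunit, had the weakest of the 8 promoter peaks, on 3R from 9767646 to 9768045, with a pooled signal of 74.9 (rank 2177), 42.6 in replicate 2 (rank 2062) and 38.5 in replicate 3 (rank 2051). The summit fell in a 5′ UTR of MED6, 31 bp upstream of one of the 5 annotated MED6 TSSs and 12 bp inside the start of Naa80, an acetyltransferase gene on the other strand. In the tail module 1 of 5 genes had a promoter peak. MED16 on 2R, from 22182765 to 22183164, had a pooled signal of 94.6 (rank 1405), with 35.9 in replicate 2 (rank 3002) and 51.0 in replicate 3 (rank 1202). Its summit was 173 bp upstream of MED16 and 86 bp upstream of CG11170.

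In the kinase module 1 of the 2 member genes had a promoter peak. The skd peak, on 3L from 21027674 to 21028073, had a pooled signal of 83.9 (rank 1764), with 31.2 in replicate 2 (rank 4019) and 47.4 in replicate 3 (rank 1406). Its summit was 440 bp upstream of skd but 41 bp upstream of Pdss2, a gene of ubiquinone synthesis. Its partner kto had no IDR peak: its only pooled candidate at a TSS had a signal of 27.0 (rank 16945) and lay in a coding exon, 473 bp downstream of an internal TSS, with none at the gene's outer TSS. The strongest kto candidate at a TSS lay at -60 bp in replicate 2 (15.5, rank 17935). In replicate 3 it lay at 83 bp (14.5, rank 18898), so the lists place it at different sites. The strongest kto candidate in the wider window reached 67.0 (rank 2717), the closest of any member to the threshold from below, and lay beyond the gene's 3′ end, 2635 bp downstream of the internal TSS. MED16 and skd were the 2 promoter peaks that ranked below the strongest 2334 of replicate 2.

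Taf4, a histone-fold subunit that helps hold TFIID together, was the 1 TFIID gene with a promoter peak. The peak, on 3L from 16113478 to 16113877, had a pooled signal of 136 (rank 711), with 69.5 in replicate 2 (rank 737) and 73.4 in replicate 3 (rank 593). The summit lay in an intron of Taf4, 112 bp upstream of one of its 3 annotated TSSs. No TSS of another protein-coding gene lay within 500 bp. Taf4 and MED4 were the only 2 of the 8 with no such neighbour.

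All 8 promoter summits lay upstream of the own TSS nearest to them, at 31 to 440 bp, with a median offset of -167 bp. Over all 1602 genes with a promoter peak, 84.9% had the summit upstream and the median offset was -120.5 bp. Median signal over the 8 was 114.5, against 105 over the whole IDR list, and 4 of the 8 exceeded that list's median. In their windows G and C made up 25.8 to 49.0% of the 151 bases, with a median of 31.8%. Over all 2334 peaks the median was 36.4% and the quartiles were 31.1 and 42.4%, so the members' median lay within them.

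**Figure D2:**
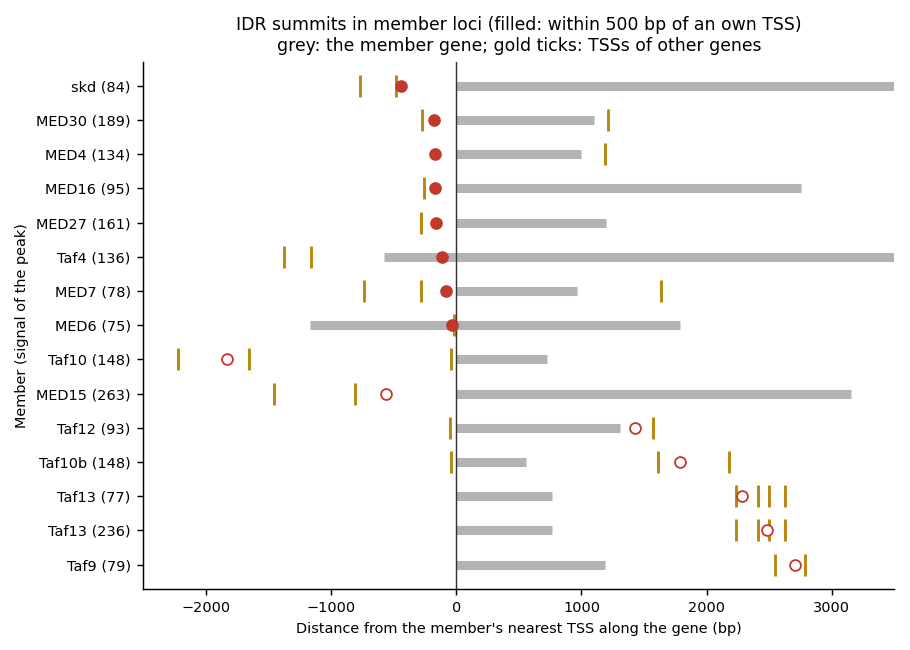
Distance of IDR summits from the nearest TSS of the member, along the gene, in bp; filled circles are summits within 500 bp of an own TSS, open circles the other summits of member loci, grey bars the member genes, gold ticks TSSs of other protein-coding genes, and the number by each name the peak's signal. The filled circles lie 31 to 440 bp upstream, and each open circle lies beside a gold tick.

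Peaks elsewhere in the loci, 6 in number, lay near the TSSs of neighbouring genes and touched 6 members that had no promoter peak. The strongest, at MED15, a tail subunit that activators bind in several species, was on 2L from 472439 to 472546 with a pooled signal of 263 (rank 149), 150.0 in replicate 2 (rank 109) and 111 in replicate 3 (rank 249). Its summit was 562 bp upstream of MED15 and 251 bp upstream of CG4297, so it missed the 500 bp window by a short distance. Taf10 and Taf10b, paralogous histone-fold genes that lie head to head, shared a peak on 2L from 2765855 to 2766254 with a signal of 148 (rank 580), 80.4 in replicate 2 (rank 533) and 64.5 in replicate 3 (rank 781). That summit was 1835 bp upstream of Taf10 and 1790 bp downstream of the Taf10b TSS, but 178 bp upstream of aph-1, a subunit gene of the gamma-secretase protease. The stretch between Taf10 and Taf10b itself, with TSSs 45 bp apart, held no candidate summit in any of the lists.

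The other locus peaks concerned Taf13, Taf12 and Taf9, all histone-fold subunits of TFIID. Taf13 had a pair of overlapping peaks on 2L, from 20091337 to 20091445 with a signal of 236 (rank 200) and from 20091366 to 20091765 with a signal of 77.0 (rank 2087). The stronger had 117 in replicate 2 (rank 208) and 117 in replicate 3 (rank 213). Its summit was 2483 bp downstream of the Taf13 TSS, 18 bp upstream of CG10747 and 69 bp upstream of Pyroxd1. The weaker summit was 46 bp upstream of a Pyroxd1 TSS, and within 200 bp both peaks matched the same region in the replicates. The Taf12 peak, on 3R from 11678060 to 11678459, had a signal of 93.4 (rank 1436), 61.2 in replicate 2 (rank 968) and 32.4 in replicate 3 (rank 2782), and its summit was 144 bp upstream of CG18476. The Taf9 peak, on X from 17844665 to 17845064, had a signal of 78.5 (rank 2005), 32.1 in replicate 2 (rank 3813) and 41.6 in replicate 3 (rank 1774), and its summit was 84 bp upstream of Ucp4A. So the TFIID count in the wider window rested, apart from Taf4, on summits at promoters of other genes.

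Head-to-head neighbours were more frequent among the members than among genes at large. The TSS of another protein-coding gene lay within 500 bp of an own TSS in 27 of 43 members (62.8%, 47.9 to 75.6), against 30.9% of all protein-coding genes. A divergent neighbour was present at 26 of 43 members (60.5%, 45.6 to 73.6), against 26.8% of all genes. In 18 of 27 Mediator genes (66.7%) and 8 of 16 TFIID genes the neighbour was divergent. Among them MED20 and Trf, a gene for a TBP-related factor, start 47 bp apart. Taf6 and the histone methyltransferase gene ash1 start 333 bp apart. Taf12 and the haem oxygenase gene Ho start 53 bp apart.

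When genes were split by such a neighbour, the members' share stood close to that of all genes in the class with a neighbour and above it in the small class without. With another TSS within 500 bp, 6 of 27 members had a promoter peak (22.2%, 10.6 to 40.8), against 21.7% of all such genes (933 of 4309). With none, 2 of 16 members had one (12.5%, 3.50 to 36.0), against 6.94% of all such genes (669 of 9636). Within the first class the peaks were at 6 of 18 Mediator genes (33.3%, 16.3 to 56.3) and at 0 of 9 TFIID genes, a count of 0 that allows a share of up to 33.3%. For 5 of the 8 promoter peaks, MED30, MED27, MED16, skd and MED6, the nearest protein-coding TSS was the neighbour's. A summit given only to the gene with the nearest protein-coding TSS left MED4, MED7 and Taf4, 3 of 43 members (6.98%), against 8.48% of all genes. At MED4 a non-coding TSS, that of asRNA:CR43470, was nearer, at 61 bp against 174 bp. Which gene of a divergent pair a summit belongs to cannot be told from these lists.

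**Figure D3:**
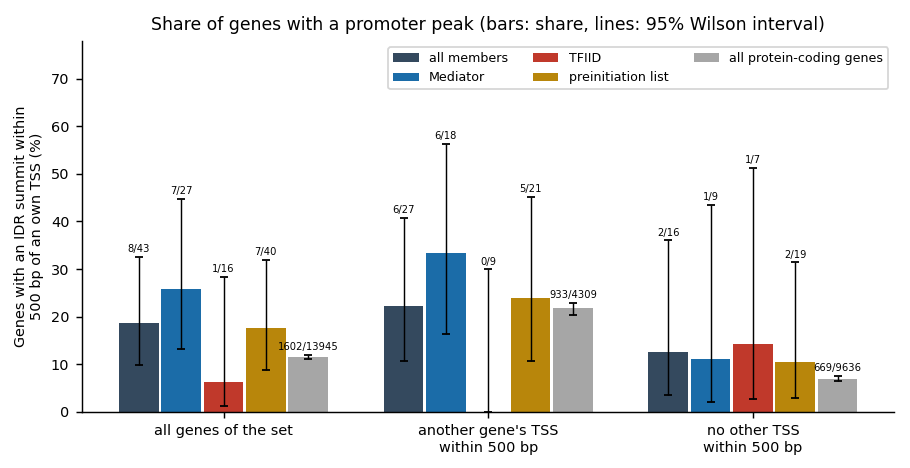
Share of genes with an IDR summit within 500 bp of an own TSS, in percent, for all members, Mediator, TFIID, the list of other preinitiation genes and all protein-coding genes; bars are shares, lines 95% Wilson intervals, and the numbers above are counts. Left, 8 of 43 members against 1602 of 13945 genes; in genes with another gene's TSS within 500 bp the member bar (6 of 27) and the bar of all genes (933 of 4309) are nearly level.

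The other 20 members with a promoter candidate fell below the IDR threshold. The highest of these was Taf7, a subunit that in human cells restrains TAF1, with a pooled signal of 59.6 (rank 3357), 22.9 in replicate 2 (rank 7749) and 33.8 in replicate 3 (rank 2591). MED8, a head subunit, had 50.8 (rank 4537) at -86 bp, with 32.7 in replicate 2 (rank 3665) at -92 bp and 13.3 in replicate 3 (rank 22986) at -272 bp. MED9, a middle subunit, had 50.7 (rank 4550) at -3 bp, with 44.6 in replicate 2 (rank 1842) at the same offset. The strongest MED9 candidate of replicate 3, with a signal of 17.8 (rank 11053), lay at -441 bp and is thus another site. Taf7 ranked higher in replicate 3. The weakest was MED22 at 22.0 (rank 26043), with 13.6 in replicate 2 (rank 23015) and no candidate in replicate 3. Next came Tbp at 22.8 (rank 24332), with 12.9 in replicate 2 (rank 25484) and 12.9 in replicate 3 (rank 24650). Taf8 had 25.7 (rank 18797), with 14.3 in replicate 2 (rank 20980) and no candidate in replicate 3. The Tbp candidate lay in a coding exon, 439 bp inside the gene for the protein that binds the TATA box. Between these came Taf13 at 47.2, MED17 at 45.0, MED24 at 43.3, MED19 at 41.7, Taf5 at 40.3 and Taf2 at 35.2. MED21 at 34.7, MED31 at 34.5, MED23 at 30.3, Taf9 at 27.9, MED26 at 27.3, kto at 27.0, Taf3 at 27.0 and Taf1 at 26.8 followed.

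No pooled candidate lay at an own TSS in 15 members. Among Mediator genes these were MED11, MED18 and MED20 of the head, MED1 and MED10 of the middle, the scaffold gene MED14, MED28, and MED15 and MED25 of the tail. Among TFIID genes they were Taf6, Taf10, Taf10b, Taf11, Taf12 and Taf12L. MED10, MED11 and MED28 had one in the list of replicate 2, and the others, among them MED1, which nuclear receptors contact in mammals, had none in either replicate. In the wider window 41 of 43 members held a pooled candidate (95.3%), against 81.0% of all genes, and MED25 and Taf12L held none. With depth unknown, a missing candidate is not a measure of absence.

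The replicates ranked the members about as alike as they ranked other genes. Among their strongest 2334 candidates, replicate 2 had one at an own TSS in 7 of 43 members (16.3%), against 11.1% of all protein-coding genes. Replicate 3 had one in 8 of 43 (18.6%), against 11.6% of all genes. Both did so for 6 members, MED30, MED27, MED4, Taf4, MED7 and MED6 (14.0%), against 8.25% of all genes. Replicate 3 alone did so for MED16 and skd, and replicate 2 alone for MED9. Across the 24 members with a candidate at an own TSS in both lists, the Spearman correlation of signal was 0.68, against 0.69 across 5155 genes; these are correlations across genes, which share the same libraries and control, and the strongest candidate of a gene can be a different site in each list. As log2 of replicate 3 over replicate 2, the signals differed by -0.13 in the median (SD 0.62) over the 24, against -0.10 (SD 0.58) over the 5155.

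**Figure D4:**
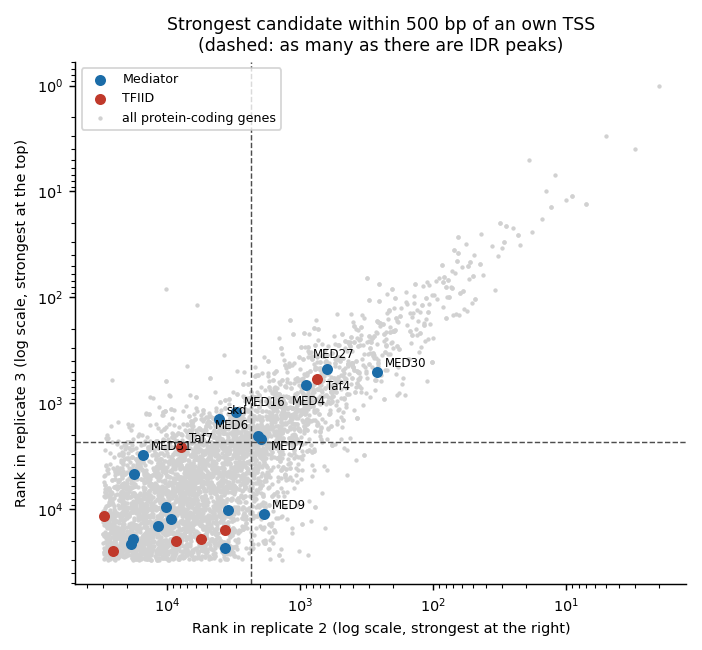
Rank of the strongest candidate within 500 bp of an own TSS in replicate 2 (strongest at the right) and replicate 3 (strongest at the top), both on log axes; blue and red points are Mediator and TFIID genes, grey points all protein-coding genes, dashed lines rank 2334. The 6 named members in the upper right field are within the strongest 2334 of both replicates, with MED30 at ranks 261 and 507; MED16 and skd lie left of the vertical line and MED9 below the horizontal one.

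Short sequence words were counted in the promoters and at the peaks. The word TATCGATA, the DNA replication-related element (DRE) that the fly factor DREF binds, was counted on both strands from 250 bp upstream to 50 bp downstream of the canonical TSS. It was present in 10 of 43 members (23.3%), against 8.94% of the same windows of all genes. The 10 were MED7, MED8, MED9, MED17, MED18, MED25, MED26, MED28, Taf3 and Tbp, and MED7 was the only one with a promoter peak. Among members with a promoter peak the count was 1 of 8 (12.5%), against 12.6% of all genes with a promoter peak. That member share rests on 1 gene and is too coarse to compare. Among the other members it was 9 of 35 (25.7%), and the share of all genes without a promoter peak was not computed. Within 100 bp of the summit the word was in 0 of the 8 promoter peaks and 0 of the 14 peaks of member loci, against 3.77% of all 2334 IDR peaks; a count of 0 in 14 allows up to 21.4%.

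The 100 bases upstream of MED17, MED25 and Taf3 are printed below to show that word, in capitals, close to start sites where no peak was found. They run 5′ to 3′ along the gene and end 1 base before the canonical TSS, and these 3 windows hold no annotated exon of a protein-coding gene.
MED17 (chr3R:18188972-18189071, + strand): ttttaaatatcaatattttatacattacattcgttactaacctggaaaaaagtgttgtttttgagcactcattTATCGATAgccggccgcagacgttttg
MED25 (chr3R:20008847-20008946, + strand): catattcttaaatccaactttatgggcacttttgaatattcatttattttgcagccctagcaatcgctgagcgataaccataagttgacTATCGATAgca
Taf3 (chr4:466829-466928, - strand): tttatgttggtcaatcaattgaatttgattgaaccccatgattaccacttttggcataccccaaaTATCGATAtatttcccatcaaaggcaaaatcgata

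The word starts 27, 11 and 35 bases upstream of the TSS in these genes. MED17 had a pooled candidate of 45.0, Taf3 one of 27.0 and MED25 none. In MED28 the word stands at -77 and at -42, and that promoter held no pooled candidate either. Of the other words, the initiator core TCAGT on the gene's strand was in 7 of 43 member promoters (16.3%), against 36.4% of all. GAGAG, a word of the GAGA factor, was in 7 of 43 (16.3%), against 30.2%, on both strands. TATAAA on the gene's strand was in 13 of 43 (30.2%), against 32.2%. The E-box words CAGCTG and CACGTG, both palindromes, were in 7 (16.3%) and 2 (4.65%) of 43, against 17.9% and 4.26%. Within 100 bp of the summit GAGAG was in 2 of 14 peaks of member loci (14.3%), against 25.3% of all IDR peaks. A match is only a string of letters in a window, and none of these shares was tested.

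Other genes of the same machinery gave a similar count. Of 40 genes for further Mediator and TFIID-related proteins, the factors TFIIA, TFIIB, TFIIE, TFIIF and TFIIH, and RNA polymerase II, 7 had a promoter peak (17.5%, 8.75 to 31.9), against 11.5% of all genes, and 21 had a divergent neighbour (52.5%). The strongest was at Ssl1, a TFIIH subunit gene, with a pooled signal of 770 (rank 7). Its summit was at -195 bp from the Ssl1 TSS, in the stretch shared with the divergent chromosomal protein gene Chro. The others were the polymerase genes Polr2H at 142 (rank 639), Polr2F at 142 (rank 645) and Polr2B at 73.0 (rank 2307), TfIIA-S at 118 (rank 933), and the TFIIH genes Tfb5 at 111 (rank 1038) and mrn at 78.9 (rank 1991). The highest-ranked promoter peak of a member was that of MED30, at rank 327.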

How the data were processed

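The 2 samples are ChIP-seq of tagged disco-r, per the labels biological replicates 2 and 3, sheared by sonication to 200 to 800 bp. The signal of a region is a deposited value of the peak caller with no stated scale, used only to rank or describe regions within a list. Per the deposited notes, the authors derived each replicate's 30000 candidates from its alignments and 1 control file, the 29347 pooled candidates from both replicates, and the IDR list of 2334 from these lists. The sources used here do not give the aligner, caller, IDR threshold or read number, so depth is unknown. The dm3 lists were not used here.

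Summits are the start plus the deposited summit offset. Genes came from Ensembl release 115 (BDGP6.54) and sequence from Release 6, which is dm6. All coding-transcript TSSs of a gene counted as its own. Replicate regions were matched to peaks by summits within 200 bp; for members without a peak the strongest candidate at an own TSS was taken in each list. Counts of members stand beside counts over all protein-coding genes, with no test, since there is 1 group and no contrast. Python 3.11.15, pandas 2.3.3, numpy 2.4.6 and scipy 1.17.1 were used, and the counting was tested on simulated summits. Every member is named; those with a peak, and the 3 strongest and 3 weakest promoter candidates without one, are given in full. The members and the list of other preinitiation genes (40 of 43 listed names used: 2 are members and 1 matched more than 1 gene) were chosen with earlier results of these data known. Alternatives covered the peak list, each replicate alone, the windows and the TSS rule.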

Additional observations from a re-analysis of the deposited data

How the results depend on the processing

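Of 44 alternative settings over the 6 counts, 36 left the count within 1.5 times its value and 8 did not. With only the 1167 peaks above the median signal, members with a promoter peak fell to 4 (9.30%, against 6.30% of all genes), Mediator members to 3 and members with a peak in the locus to 8. With summits given only to the gene of the nearest protein-coding TSS, 3 members were left at an own TSS, against 8.48% of all genes. The other counts under that rule were 2 Mediator members, 3 members in the locus and 3 genes of the preinitiation list. Without flanks 2 members held a peak in the gene body (4.65%, against 7.60% of all genes), and flanks of 5 kb gave 21. The share of all genes was not computed for the 5 kb flanks. Nor was it computed for the locus counts with the stricter list, the nearest TSS or a single replicate. Leaving out each replicate gave 7 to 8 members with a promoter peak, 12 to 13 in the locus, 25 to 30 with a promoter candidate, 6 to 7 Mediator members, 1 TFIID member and 6 to 8 preinitiation genes. A promoter candidate was present in 46.6% of all genes with replicate 3 alone and in 51.6% with replicate 2 alone. Of the promoter peaks, replicate 2 alone lost MED16 and skd and gained MED9, and replicate 3 alone had the same 8. MED4 and Taf4 kept their promoter peak in 8 of 8 settings, skd in 4, with only protein-coding TSSs considered. No paired analysis was possible because there is 1 group and no result comes from a test. Depth is unknown, so how far it limits the weaker candidates cannot be told.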

Other observations

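The spread of the members over the chromosome arms was counted and not tested. On 2L lay 7 members (16.3%, against 19.1% of all genes), on 2R 6 (14%, against 20.5%) and on 3R 10 (23.3%, against 24.5%). Of the 43, 14 lay on 3L (32.6%), against 19.6% of all protein-coding genes. The X chromosome held 4 members (9.30%), against 15.7% of all genes, and the small chromosome 4 held 2, MED26 and Taf3, against 0.574% of all genes.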
